A study of Mus musculus with 4 samples.

Results

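Cytochrome P450 genes encode haem enzymes that oxidise drugs, toxins, steroids, vitamins A and D and fatty acids. The genes described here are all those whose symbol has the form of a mouse P450 gene (Cyp, a family number, a subfamily letter and a gene number) and that own a probe set paired with 1 gene. They number 81 of 19938 genes with such a probe set, and each has 1 probe set. They were sorted by symbol prefix, after the best known substrates of each prefix. This placed 43 with the xenobiotic enzymes, 13 with steroids, bile acids and vitamin D, 3 with retinoids, 20 with fatty acids and 2 with no settled substrate. A member can differ from its group: Cyp2b19, placed with the xenobiotic enzymes, makes epoxides of arachidonic acid. Por, the reductase that passes electrons to P450 enzymes of the endoplasmic reticulum, was not analysed here, and neither were Cyp19a1 and Cyp24a1. Cyp4v3 shares its probe set with another gene and was left out. The array holds 7 P450 probe sets paired with several genes, and none of them gave a member.

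Whole back skin came from C57Bl6 mice at postnatal day 22, when hair follicles rest (telogen), and was taken at ZT22, which is 22 hours after lights on. The 2 KO mice had lost both copies of Bmal1 (symbol Arntl) in the germline, and the 2 het mice carried 1 mutant and 1 wild-type copy, so no group is wild type. BMAL1 and CLOCK together drive the circadian clock. Each mouse gave 1 Affymetrix whole-transcript array, and the number of arrays limits the precision of every value. The design text calls the mice littermates but does not say which share a litter.

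In liver, clock control of P450 genes is known to run in part through DBP, TEF and HLF, the PAR bZIP factors, which bind D-box elements and are themselves clock outputs, and through receptors such as CAR that they govern. In skin, P450 enzymes are known for oxidising environmental chemicals, for turning over retinoic acid, for activating vitamin D and for making lipids of the water barrier. The comparison of KO with het arrays asked which of these genes have another level in skin that lacks Bmal1 late in the dark phase.

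All levels are quantile-normalized log2 values, and every difference is KO minus het. Levels of different probe sets are not comparable with each other. Arntl itself read 8.29 and 8.16 in KO arrays, against 8.90 and 9.08 in het arrays, a difference of -0.76 (SE 0.12, adjusted p = 0.0150). Epidermal, dermal and fat markers were read well above the filter: the basal keratinocyte list averaged 11.20 to 11.53 in KO arrays and 11.15 to 11.46 in het arrays. Hepatocyte markers averaged 6.14 to 6.35 in KO arrays and 6.49 to 6.58 in het arrays, and 4 of these 7 genes, Apob, Fgb, Ahsg and Serpina1c, lay below the filter. Among the 4 arrays, het array 2 and KO array 1 were the least alike, with a correlation across tested probe sets of 0.966, against 0.988 between the KO arrays and 0.983 between the het arrays.

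Of the 81 P450 genes, 40 had a mean over the 4 arrays above the filter value of 6.67 and were tested. Among them, 3 rose and 1 fell in KO skin: Cyp3a57, Cyp2e1 and Cyp1a1 were higher, and Cyp2f2 was lower. All 4 are xenobiotic enzymes. The background over all 16341 tested probe sets was 1.47% higher and 0.502% lower at the same limma threshold, an adjusted p under 0.05, or 1.98% in either direction. These calls rest on the set of probe sets in the fit. When probe sets paired with several genes were fitted too, 0 of 17557 passed, 15.5% of them having an unadjusted p under 0.05, and the adjusted p of the 4 genes lay between 0.0981 and 0.187. That holds for every other gene said here to have risen or fallen. The split of calls also moved with scaling: 74.6% of all calls were higher in KO arrays, and 85.4% after median centring.

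**Figure D1:**
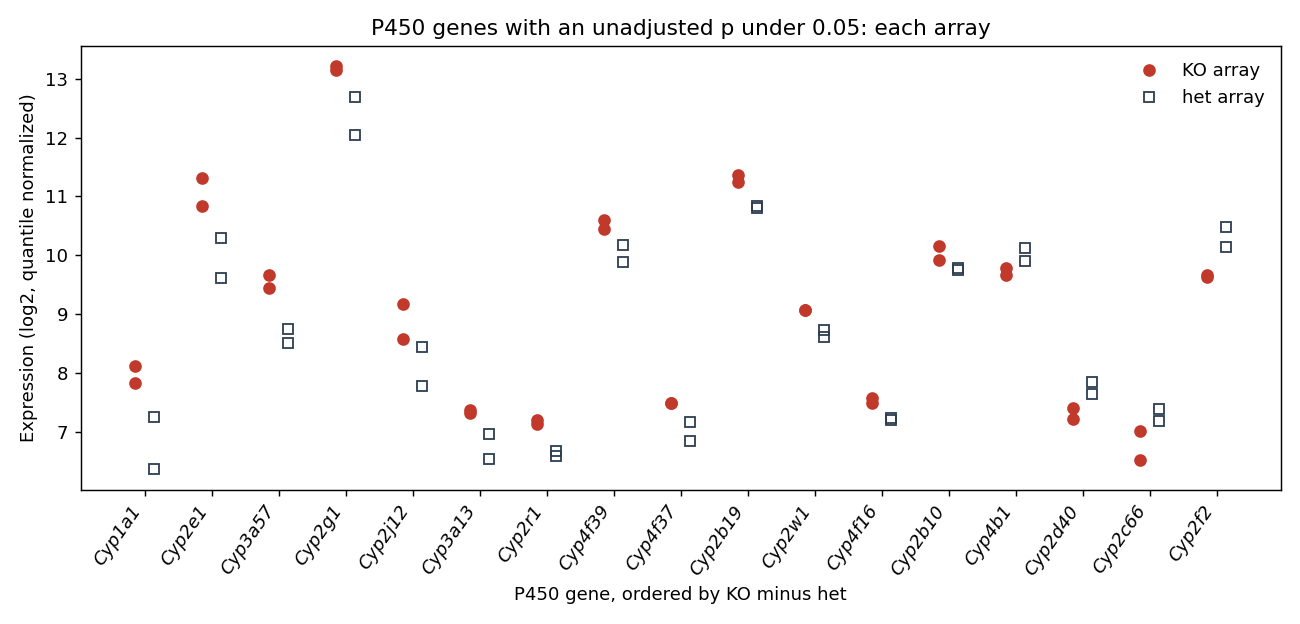
Log2 expression on each array of the 17 P450 genes with an unadjusted p under 0.05, ordered by the difference; filled circles are the 2 KO arrays and open squares the 2 het arrays. Cyp1a1, at the left, spans 6.36 to 7.25 in het arrays below 7.82 and 8.12 in KO arrays, and Cyp2f2, at the right, has both KO arrays below both het arrays.

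The clearest call was Cyp3a57 (probe set 10527487, chromosome 5), a member of the CYP3A subfamily of broad-range drug oxidases. It read 9.44 and 9.67 in KO arrays, against 8.74 and 8.50 in het arrays. Both KO arrays lay above both het arrays, and the gap between genotypes was wider than that within either. The difference was 0.94 (SE 0.13, adjusted p = 0.0113, n = 2 per genotype), or 1.91-fold. It passed in 15 of 17 other settings. Cyp3a57 has closely similar copies beside it, and another probe set of the array is paired with Cyp3a57, Cyp3a59 and Cyp3a25 together, so its signal may include theirs. Its neighbour Cyp3a25 differed by 0.06 (SE 0.21), and Cyp3a11, Cyp3a16 and Cyp3a44 lay below the filter. Cyp3a13, which stands apart from that cluster on chromosome 5, read 7.38 and 7.32 in KO arrays, against 6.96 and 6.53 in het arrays, and its difference of 0.60 did not pass (SE 0.17, adjusted p = 0.102).

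Cyp2e1 (probe set 10558673, chromosome 7) encodes the enzyme that oxidises ethanol and other small molecules. Its level was 10.84 and 11.31 in KO arrays and 10.29 and 9.61 in het arrays. The pairs did not overlap, but the het arrays were 0.68 apart. The difference was 1.12 (SE 0.22, adjusted p = 0.0334), or 2.17-fold. The call ended without het array 2, where the difference was 0.78 (adjusted p = 0.0585), and without KO array 2, where it was 0.88 (adjusted p = 0.0770). Adipocytes are one known site of Cyp2e1, and the 6 adipocyte markers measured averaged 10.79 and 11.09 in KO arrays and 11.19 and 10.60 in het arrays, 4 of them higher and 2 lower in KO arrays with none past the threshold. Their part in the Cyp2e1 difference was not tested.

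Cyp1a1 (probe set 10585749, chromosome 9), the classic target of the aryl hydrocarbon receptor, oxidises polycyclic aromatic hydrocarbons. Its levels were 7.82 and 8.12 in KO arrays, against 7.25 and 6.36 in het arrays. Het array 2 lay below the filter value and far from het array 1, so the size of the difference depends on it. The difference was 1.17 (SE 0.25, adjusted p = 0.0459), or 2.25-fold. Without het array 2 it was 0.72 (adjusted p = 0.0434), and without het array 1 it was 1.61 (adjusted p = 0.00174). The call ended without KO array 1 (adjusted p = 0.0944) and without KO array 2 (adjusted p = 0.138). The receptor gene Ahr itself differed by -0.07 (SE 0.12), its repressor Ahrr by -0.0022 (SE 0.15), and neither passed. Tiparp and Aldh3a1, which the receptor is also known to induce, differed by -0.07 (SE 0.12) and -0.22 (SE 0.12), and Nqo1, a quinone reductase induced by that receptor and by NRF2, by 0.77 (SE 0.20, adjusted p = 0.0851). Of its close relatives none passed: Cyp1b1, which oxidises hydrocarbons and oestrogens, read 8.48 and 8.24 in KO arrays, against 8.64 and 8.55 in het arrays (difference -0.23, SE 0.12, adjusted p = 0.363), and Cyp1a2 lay below the filter.

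Cyp2f2 (probe set 10551293, chromosome 7), known from the club cells of the airway, where it activates naphthalene, was the 1 P450 gene that fell. It measured 9.62 and 9.67 in KO arrays and 10.48 and 10.13 in het arrays. The KO arrays were close to each other and both below the het pair. The difference was -0.66 (SE 0.13, adjusted p = 0.0402), so the KO level was 0.634 of the het level. Its call ended without het array 1 (-0.49, adjusted p = 0.0655), without KO array 1 (-0.64, adjusted p = 0.173) and without KO array 2 (-0.68, adjusted p = 0.0754). Median centring gave -0.52 (adjusted p = 0.0694) and the values as deposited gave -0.56 (adjusted p = 0.0642), which ended it as well. In bulk skin, fewer cells that make a transcript and less of it per cell cannot be told apart, for this gene and for all others here.

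The start-site windows of these 4 genes are printed to show what letters lie where clock and xenobiotic factors could bind. They are RefSeq sequence of GRCm38.p6, 250 bases before to 50 after the start, read along the gene. Matches to 3 motifs were searched on both strands and set in capitals: the D-box TTANGTAA, bound by the PAR bZIP factors and NFIL3, the E-box CACGTG, bound by CLOCK and BMAL1, and GCGTG, the core bound by the aryl hydrocarbon receptor with ARNT. Matches to CACGTG and GCGTG can share letters at their ends, but neither motif holds the other. The windows lie at chr9:57697363-57697662 on the plus strand for Cyp1a1, chr7:140763569-140763868 on the plus strand for Cyp2e1, chr7:27119705-27120004 on the plus strand for Cyp2f2 and chr5:145345019-145345318 on the plus strand for Cyp3a57.
Cyp1a1: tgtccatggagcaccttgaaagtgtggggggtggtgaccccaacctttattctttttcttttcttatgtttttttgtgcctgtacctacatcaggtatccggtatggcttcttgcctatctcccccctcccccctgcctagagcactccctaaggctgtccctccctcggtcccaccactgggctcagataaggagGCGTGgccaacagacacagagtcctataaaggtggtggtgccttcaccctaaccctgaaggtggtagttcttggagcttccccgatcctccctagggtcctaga
Cyp2e1: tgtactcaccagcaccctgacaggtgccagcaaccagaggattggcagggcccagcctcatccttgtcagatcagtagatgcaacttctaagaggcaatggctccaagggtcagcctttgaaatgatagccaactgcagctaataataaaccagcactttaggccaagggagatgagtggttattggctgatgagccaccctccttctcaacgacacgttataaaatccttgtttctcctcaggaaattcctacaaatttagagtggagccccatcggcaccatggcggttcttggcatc
Cyp2f2: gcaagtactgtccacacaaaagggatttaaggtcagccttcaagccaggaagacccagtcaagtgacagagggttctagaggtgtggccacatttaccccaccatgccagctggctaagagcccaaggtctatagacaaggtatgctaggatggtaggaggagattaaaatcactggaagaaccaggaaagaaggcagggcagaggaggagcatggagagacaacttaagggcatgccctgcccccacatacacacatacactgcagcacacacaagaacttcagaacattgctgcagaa
Cyp3a57: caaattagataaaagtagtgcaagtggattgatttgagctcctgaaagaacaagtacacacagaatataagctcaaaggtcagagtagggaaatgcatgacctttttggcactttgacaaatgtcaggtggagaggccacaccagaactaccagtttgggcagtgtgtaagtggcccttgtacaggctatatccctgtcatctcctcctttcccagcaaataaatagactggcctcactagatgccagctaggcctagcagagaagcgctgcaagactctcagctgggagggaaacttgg
The Cyp1a1 window holds 1 core match, which begins 54 bases before the start, and the other windows hold no match. Over all members, 62 of 81 had at least 1 window, 70 windows in all. The D-box matched 1 of these 70 windows, or 1.43%, that of Cyp2c38, which lay below the filter, and it matched 2.32% of all 32851 windows. The E-box matched 1 window, that of Cyp2j6, against 7.15% of all windows. The xenobiotic core matched 15 windows, or 21.4%, against 32.4% of all windows. Counted by gene, it was found in 11 of the 33 tested members with a window. They are Cyp1a1, Cyp1b1, Cyp20a1, Cyp2b10, Cyp2j12, Cyp2j9, Cyp2r1, Cyp2w1, Cyp46a1, Cyp4f16 and Cyp4f39. A share by gene over all genes was not counted. A match is a run of letters and shows no binding, and these windows leave out enhancers farther off.

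The other xenobiotic members went both ways, and none of them passed. Over all 20 tested, the 4 calls included, 11 were higher and 9 lower in KO arrays. The median difference was 0.0078, or -0.047 with the deposited values. It rested on the filter, and was 0.34 over the 10 genes left by a filter at the 50th percentile. Over all tested probe sets 54.2% were higher, with a median of 0.022. The counts and sizes that follow are over the same 20. At an unadjusted p under 0.05 there were 8 higher and 3 lower, where the background was 11.6% higher and 6.38% lower, or 17.9% in either direction. Differences were spread more widely than in the array at large, with a median absolute size of 0.35, beside 0.14 over all tested probe sets. The gap within a genotype was also wider for the P450 genes, at a median of 0.18 between KO arrays and 0.22 between het arrays over the 40 tested, beside 0.12 and 0.14 over all tested probe sets.

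**Figure D2:**
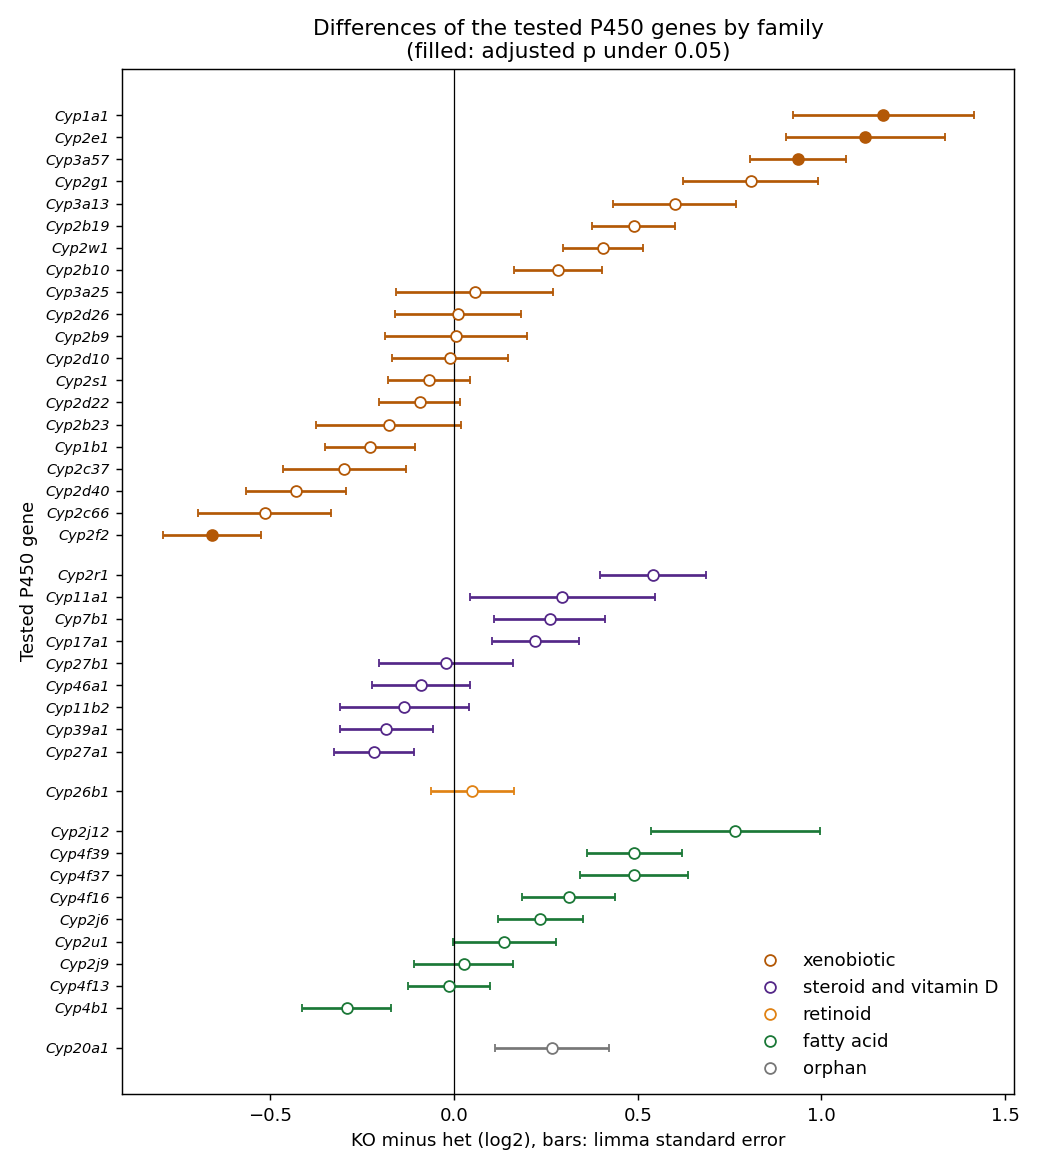
KO minus het on the log2 scale for the 40 tested P450 genes, grouped by family, with limma standard errors as bars; filled points have an adjusted p under 0.05. The 4 filled points are Cyp1a1, Cyp2e1 and Cyp3a57 on the right and Cyp2f2 on the left, all in the xenobiotic family, whose other members lie on both sides of 0.

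Next in order of p were Cyp2g1 and Cyp2b19, neighbours on chromosome 7. Cyp2g1, known as a P450 of the olfactory mucosa, read 13.22 and 13.15 in KO arrays, against 12.70 and 12.05 in het arrays (difference 0.81, SE 0.18, adjusted p = 0.0589). Its KO arrays were close and both above the het arrays, which were 0.64 apart. Without het array 2 the difference was 0.49, and without het array 1 it was 1.13. Cyp2b19, a keratinocyte enzyme that makes epoxides of arachidonic acid, read 11.36 and 11.25 in KO arrays, against 10.80 and 10.83 in het arrays. Both pairs were tight and did not overlap, and the difference was 0.49 (SE 0.11, adjusted p = 0.0597). It stayed between 0.43 and 0.54 with any 1 array left out. Suprabasal keratinocyte markers, which mark the cells known to make Cyp2b19, averaged 12.26 and 12.13 in KO arrays and 12.29 and 12.03 in het arrays, with 3 of 5 higher and none past the threshold.

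Several further xenobiotic genes reached only an unadjusted p under 0.05. Cyp2w1 read 9.07 and 9.08 in KO arrays, against 8.61 and 8.72 in het arrays (difference 0.41, SE 0.11, adjusted p = 0.0939). Cyp2b10, the liver marker of activation of the receptor CAR, read 9.92 and 10.16 in KO arrays, against 9.77 and 9.74 in het arrays (difference 0.28, SE 0.12, adjusted p = 0.257). Nr1i3, the gene for CAR, and Nr1i2, that for PXR, both lay below the filter. Lower values were read for Cyp2d40, at 7.22 and 7.41 in KO arrays and 7.64 and 7.85 in het arrays (adjusted p = 0.140), and for Cyp2c66, at 6.52 and 7.0 in KO arrays and 7.38 and 7.18 in het arrays (adjusted p = 0.175). Both belong to large subfamilies whose members resemble each other, so their probes may also read relatives. Cyp2s1, an epithelial P450, differed little, with 7.94 and 7.90 in KO arrays and 8.02 and 7.96 in het arrays (difference -0.07, 95% interval -0.32 to 0.18).

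Along the chromosomes, the tested members of the chromosome 7 cluster described here, and of the Cyp2d and Cyp4f clusters, had differences of both signs. Those of the Cyp2j, Cyp3a, Cyp2c and Cyp1a1-Cyp11a1 clusters each had 1 sign, over 2 or 3 tested members. Some of these signs rest on differences smaller than their SE. Cyp2j9 (0.03, SE 0.13), Cyp3a25 (0.06, SE 0.21), Cyp4f13 (-0.01, SE 0.11) and Cyp2d26 (0.01, SE 0.17) are among them. Cyp11a1, at 0.29 (SE 0.25), turned to -0.12 without KO array 1. So the signs give no firm direction for a cluster. The cluster on chromosome 7 that holds Cyp2s1, Cyp2b10, Cyp2b19, Cyp2g1 and Cyp2f2 has 11 members, of which 7 were tested, 4 higher and 3 lower. Cyp2g1 and Cyp2f2, at 0.81 and -0.66, are separated in it by 2 members, Cyp2a22 and Cyp2a12, both below the filter. Of the 12 members of the Cyp2c cluster on chromosome 19, 10 lay below the filter, and the 2 tested, Cyp2c66 and Cyp2c37, were lower. In the Cyp2d cluster of chromosome 15, 4 of 8 were tested, with differences of -0.43 for Cyp2d40, -0.09 for Cyp2d22, -0.01 for Cyp2d10 and 0.01 for Cyp2d26.

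**Figure D3:**
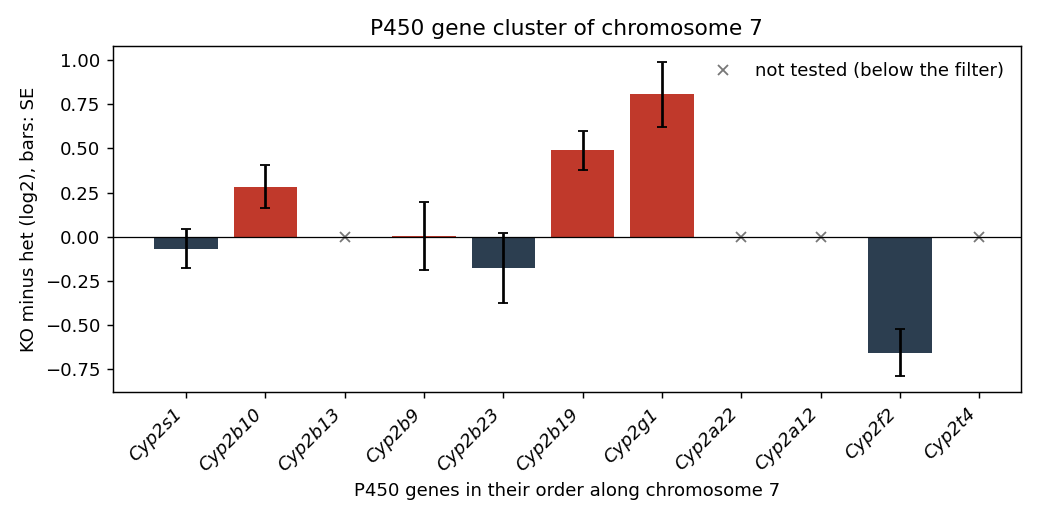
KO minus het on the log2 scale, with limma standard errors, for the 11 P450 genes of the chromosome 7 cluster in their order along the chromosome; crosses mark 4 genes below the filter. Cyp2b19 and Cyp2g1 stand side by side at 0.49 and 0.81, and Cyp2f2 lies on the other side of 0 at -0.66.

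Fatty acid P450 genes mostly had higher values, with no member past the threshold. Of 20 genes 9 were tested, 7 of them higher and 2 lower, with a median difference of 0.24, and 5 had an unadjusted p under 0.05, beside 54.2% higher and 17.9% with such a p over all tested probe sets. The median rested on the filter: it was 0.058 over all 20 genes and 0.13 with a filter at the 50th percentile. Cyp4f39, which hydroxylates the ultra-long fatty acids of the ceramides that seal the skin barrier, read 10.60 and 10.44 in KO arrays, against 10.17 and 9.89 in het arrays (difference 0.49, SE 0.13, adjusted p = 0.0892). The genotypes did not overlap. Cyp4f37 and Cyp4f16, its neighbours on chromosome 17 and members of the same subfamily of fatty acid hydroxylases, differed by 0.49 (SE 0.15) and 0.31 (SE 0.13), also without overlap. Cyp4f13, in the same cluster, read 9.03 and 8.93 in KO arrays, against 8.95 and 9.04 in het arrays (difference -0.01, 95% interval -0.26 to 0.24).

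Cyp2j genes encode enzymes that epoxidise arachidonic acid. Cyp2j12 read 8.58 and 9.17 in KO arrays, against 8.45 and 7.77 in het arrays. KO array 1 lay just above het array 1, so that the difference of 0.77 (SE 0.23, adjusted p = 0.123) was 0.43 without het array 2 and 1.102 without het array 1. Cyp2j6 differed by 0.24 (SE 0.11) and Cyp2j9 by 0.03 (SE 0.13). Cyp4b1, whose known substrates are fatty acids and furans, was the 1 fatty acid member with a lower value at an unadjusted p under 0.05, at 9.79 and 9.66 in KO arrays and 10.12 and 9.91 in het arrays (difference -0.29, SE 0.12, adjusted p = 0.248). Cyp2u1, which hydroxylates long-chain fatty acids, differed by 0.14 (95% interval -0.18 to 0.45).

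Among steroid and vitamin D genes, no member passed, and 4 of 9 tested were higher. Cyp2r1, which carries out the first hydroxylation of vitamin D, read 7.13 and 7.20 in KO arrays, against 6.58 and 6.67 in het arrays (difference 0.54, SE 0.14, adjusted p = 0.0904). Both pairs were tight, but its het mean was below the filter value, so it entered the test through the KO arrays, as Cyp7b1 did. These 2 genes are among the 4 higher members here. They also count in the 24 of all 40 tested members that were higher, and in the 16 with both KO arrays above both het arrays. Cyp27b1, which makes the active hormone, read 6.89 and 6.64 in KO arrays, against 6.99 and 6.58 in het arrays, overlapping levels near the filter (difference -0.02, 95% interval -0.43 to 0.39). Cyp27a1, a sterol hydroxylase that can also act on vitamin D, read 9.09 and 9.04 in KO arrays, against 9.25 and 9.32 in het arrays (difference -0.22, SE 0.11, adjusted p = 0.329).

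No gene of steroid or oxysterol synthesis passed. Cyp11a1, which cleaves the cholesterol side chain in the first step to steroids, read 7.72 and 6.89 in KO arrays, against 7.24 and 6.78 in het arrays. The arrays of both genotypes overlapped, and the difference of 0.29 (SE 0.25) was -0.12 without KO array 1 and 0.71 without KO array 2. Cyp17a1, which leads on to androgens, differed by 0.22 (SE 0.12, adjusted p = 0.361) and Cyp7b1, an oxysterol hydroxylase, by 0.26 (SE 0.15, adjusted p = 0.399). The bile acid genes Cyp7a1 and Cyp8b1 and the adrenal genes Cyp11b1 and Cyp21a1 lay below the filter.

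Of the retinoic acid hydroxylases, only Cyp26b1 was tested. It read 8.70 and 8.80 in KO arrays, against 8.76 and 8.65 in het arrays, overlapping levels with a difference of 0.05 (95% interval -0.20 to 0.30, adjusted p = 0.857). Cyp26a1 read 6.04 and 5.55 in KO arrays, against 5.91 and 5.95 in het arrays, and Cyp26c1 read 6.77 and 6.67 in KO arrays, against 6.59 and 6.37 in het arrays, both with means below the filter. Of 12 tested genes of retinoid handling outside the P450 family, 7 had higher and 5 lower values, and 2 passed, both higher. Those shares were 58.3% higher and 16.7% past the threshold, beside 54.2% and 1.98% of all tested probe sets. Rdh11, a retinal reductase, read 10.12 and 10.15 in KO arrays, against 9.58 and 9.27 in het arrays (difference 0.71, SE 0.13, adjusted p = 0.0265). Dgat1, which esterifies both retinol and diacylglycerol, read 10.76 and 10.94 in KO arrays, against 10.20 and 9.55 in het arrays (difference 0.98, SE 0.19, adjusted p = 0.0331). Both calls ended without either of the KO arrays, and that of Rdh11 also without het array 2, with adjusted p between 0.0606 and 0.102. They ended without a filter too (adjusted p = 0.0692 for Dgat1 and 0.0504 for Rdh11), and that of Dgat1 without a trend in the variance prior (0.0535) and with a robust prior (0.0524). Aldh1a1, a retinaldehyde dehydrogenase that makes retinoic acid, did not pass at -0.61 (SE 0.14, adjusted p = 0.0629), nor did Crabp2, which carries retinoic acid to its receptors, at 0.42 (SE 0.13, adjusted p = 0.123).

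Cyp20a1, a P450 with no settled substrate, differed by 0.27 (SE 0.16, adjusted p = 0.401), and by 0.05 without het array 2. Cyp2t4 lay below the filter. In all, the 41 members below the filter had means between 3.91 and 6.63, and they were not tested. Of the 40 tested, both KO arrays lay above both het arrays in 16 and below in 9, or 62.5% apart, where 27.8% of all tested probe sets were above, 22.1% below and 49.8% apart. Among the 13 members that were higher at an unadjusted p under 0.05, het array 2 had the lowest value for 10 and het array 1 for 3. These members were picked for low het values, so the split compares the 2 het arrays only. The same split over all probe sets was not counted.

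Genes on a list of electron and haem partners of P450 enzymes also had mostly higher values, with none past the threshold. Of the 16 genes measured, 15 had higher values, beside 54.2% of all tested probe sets, with a median difference of 0.25. The arrays of the genotypes did not overlap in 43.8% of them, beside 49.8% of all tested probe sets. An unadjusted limma p under 0.05 was reached by 25%, beside 17.9%. Most genes of the list are of electron transfer or haem synthesis. The list also holds Hmox1 and Hmox2, which break haem down, and Pgrmc1 and Pgrmc2. The list averaged 9.61 and 9.63 in KO arrays and 9.52 and 9.22 in het arrays, so het array 2 lay below the other 3. Alas1, the rate-limiting enzyme of haem synthesis, read 9.45 and 9.75 in KO arrays, against 9.19 and 8.69 in het arrays (difference 0.66, SE 0.17, adjusted p = 0.0828). Urod, another haem synthesis enzyme, differed by 0.52 (SE 0.13, adjusted p = 0.0806), and Cpox and Alad by 0.39 and 0.51. Without het array 2 the Alas1 difference was 0.41 and that of Cpox 0.19. Cyb5a, cytochrome b5, an electron donor to some P450 enzymes, was the 1 gene of this list with a lower value.

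None of the D-box factors passed. Tef read 8.71 and 8.70 in KO arrays, against 8.14 and 8.35 in het arrays (difference 0.46, SE 0.12, adjusted p = 0.0814). Dbp differed by 0.24 (SE 0.11), Nfil3, a repressor at the same sites, by 0.26 (SE 0.12) and Hlf by -0.09 (SE 0.14). Hlf turned to 0.02 after median centring. Over the 20 tested regulators of P450 genes, 11 were higher and 9 lower, beside 54.2% higher over all tested probe sets. Among conjugating and other detoxifying enzymes 12 of 22 tested were higher, or 54.5%, and 4.55% passed, beside 1.98% of all tested probe sets. The 1 that passed, Gsta3, a glutathione S-transferase, fell, with 7.10 and 6.81 in KO arrays and 8.79 and 8.16 in het arrays (difference -1.52, SE 0.20, adjusted p = 0.00886).

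Markers of some other cells in skin also differed. The background over all tested probe sets was 54.2% higher, with 1.47% past the threshold as higher and 0.502% as lower. Fibroblast, endothelial and melanocyte markers had no call, with median differences of 0.069, -0.022 and 0.023. All 8 sebocyte markers measured were higher in KO arrays and 2 of them rose, Awat1 and Elovl3, with a median difference over the list of 0.62. The call of Elovl3 ended without KO array 1 (adjusted p = 0.0601). The mean level of the sebocyte markers was 11.06 on both KO arrays and 10.62 and 10.24 on het arrays 1 and 2. All 8 skeletal muscle markers were higher, 3 of them past the threshold, with mean levels of 12.84 and 12.58 in KO arrays and 12.05 and 12.09 in het arrays. Macrophage and Langerhans cell markers averaged 9.65 and 9.71 in KO arrays and 9.97 and 9.75 in het arrays, with 5 of 8 lower and 1 of them past the threshold. The part of these cells in the P450 differences was not tested.

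**Figure D4:**
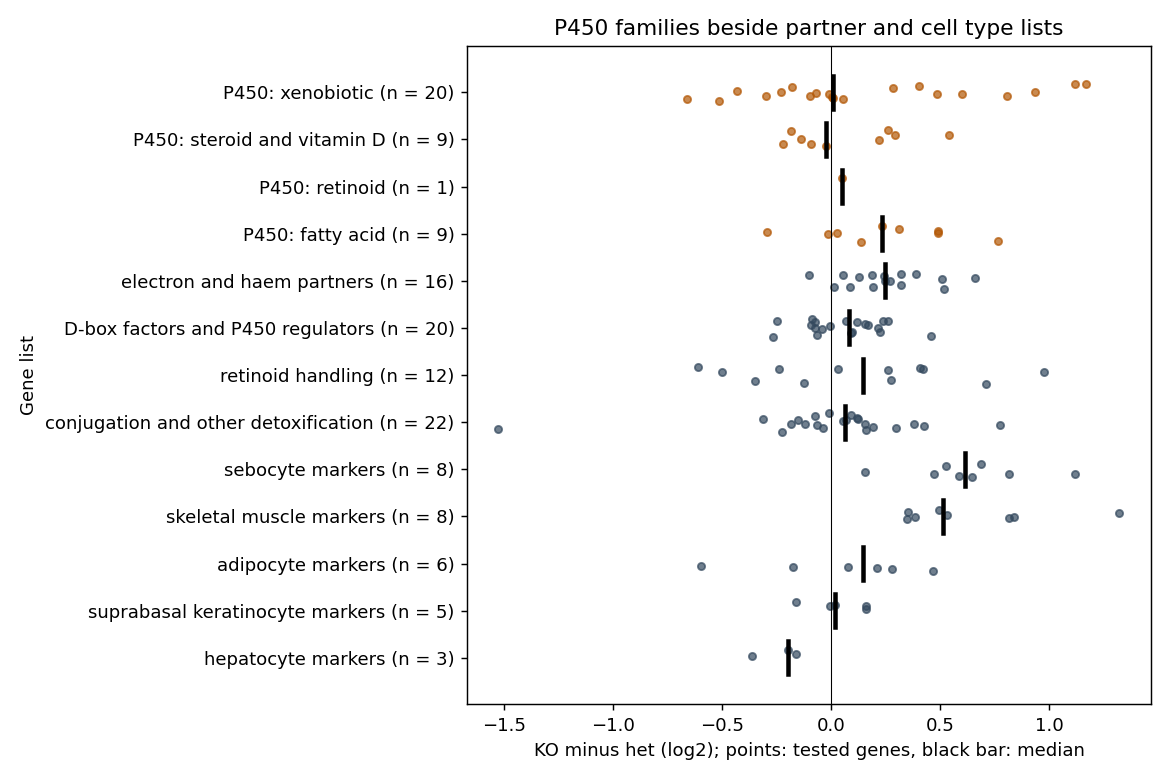
KO minus het on the log2 scale for every tested gene of 4 P450 families and of partner and cell type lists; points are genes and black bars are list medians. The fatty acid family has a median of 0.24, close to the 0.25 of electron and haem partners, and sebocyte markers, at 0.62, lie to the right of both.

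The 4 calls differed in how far they held across settings. Of 17 other settings, Cyp3a57 passed in 15 and Cyp2e1 in 10, and Cyp2f2 passed in 8. Cyp1a1 passed in 9 of the 16 in which it was tested. All 4 calls ended with all probe sets in the fit (adjusted p 0.267 to 0.318). Those of Cyp2e1, Cyp1a1 and Cyp2f2 ended without a filter (adjusted p 0.0692 to 0.1004) and without a trend in the variance prior (0.0538 to 0.0626), and those of Cyp2e1 and Cyp1a1 with a robust prior (0.114 and 0.135). Of the members that did not pass, Cyp2g1 did so in 5 other settings, Cyp2b19 and Cyp4f39 in 4 each. No direction of these 7 genes turned in any of them.

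**Figure D5:**
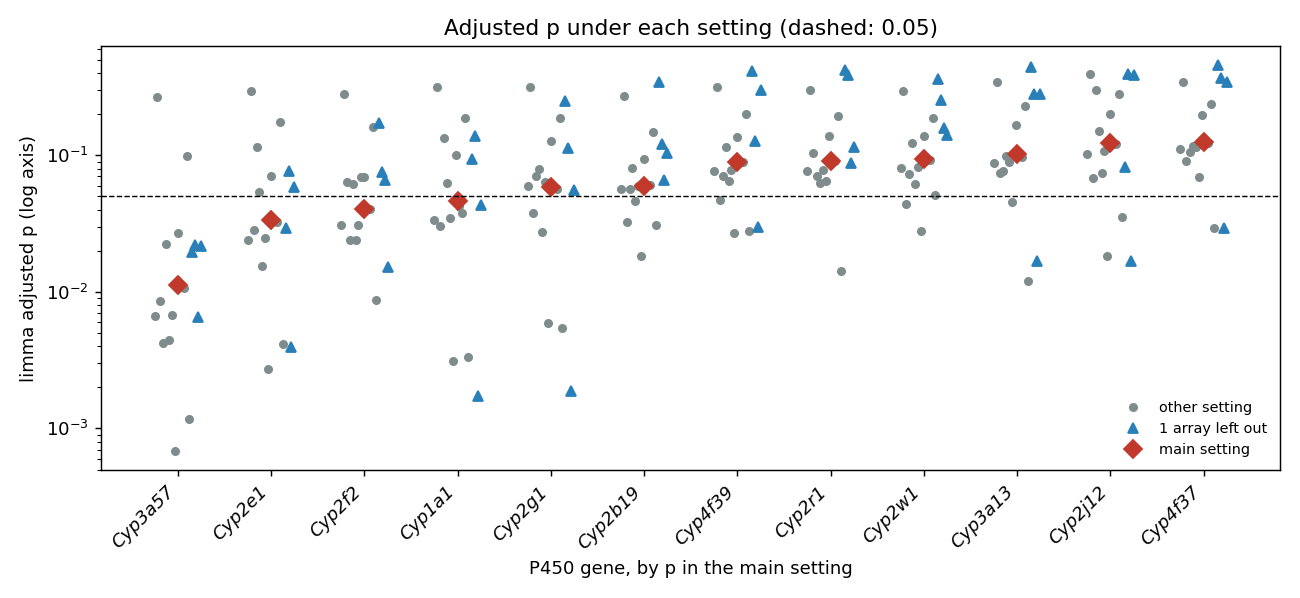
Adjusted p on a log axis for the 12 P450 genes with the smallest p; diamonds are the main setting, triangles the fits with 1 array left out and circles the other settings, with the threshold of 0.05 dashed. Cyp3a57 lies below the line in 15 of 17 other settings, and for Cyp2e1, Cyp2f2 and Cyp1a1 the settings fall on both sides of it.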

How the data were processed

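The members, families and gene lists were chosen with earlier results of these data known. Per the submitters' processing notes, the authors used Affymetrix Expression Console 1.1.1 and PLIER 2.0; the deposited values span 2.54 to 14.9 and are read as log2 for that reason, and how arrays were scaled is not stated in the labels. RNA was amplified with random priming before hybridisation, per the labels' protocols. A probe set averages probes along a transcript, so a change in part of it can be hidden, and related genes can share signal. At most 0.104% of values were equal between any 2 arrays. Array quartiles differed by up to 0.34, above the tolerance of 0.1, so all 4 arrays were quantile normalized. Of 35557 probe sets, GEO's platform annotation gives 1 gene for 21789, more than 1 for 1621 and no gene for 12147; 21698 were matched by gene identifier to a GRCm38.p6 table, used also for gene order. Tested were the 16341 probe sets paired with 1 gene whose mean lay above the 25th percentile, with limma 3.58.1 in R 4.3.3 (trended eBayes, Benjamini-Hochberg, 2 residual degrees of freedom), a procedure tested on simulated data. The simulated arrays had independent errors and no shift shared by an array, so they cannot show how such a shift would act on the calls here. Array levels have no read depth. SEs are limma's moderated ones. Named were a list of 26 genes, 22 of them present, members with an unadjusted p under 0.05 and the 3 largest differences per family, and, per other list, up to 4 genes with an unadjusted p under 0.05. With their values already known, Ahr, Ahrr, Tiparp, Aldh3a1, Nr1i2, Nr1i3, Cyb5a and the members named for their place in a cluster or subfamily or as below the filter were added. The alternatives were scaling, filter, variance prior, probe sets fitted, offset, replicate number and each array left out. The fit with several-gene probe sets was added after the data were seen.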

Additional observations from a re-analysis of the deposited data

How the results depend on the processing

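The number of P450 genes past the threshold was 4 in the main setting. It was 7 with the deposited values, 9 after median centring, 1 without a filter, 1 without a trend, 2 with a robust prior, 0 with all probe sets and 0 with probe sets paired with 1 or several genes; the cause was not tested. The all-gene count was 323 in the main setting, 544 with the deposited values, 913 after median centring and 145 without a filter. With 1 array left out the number of P450 genes ran from 1 to 8. A replicate block on the labelled number gave 12, and 1235 probe sets passed; the deviations of equally numbered arrays correlated at 0.167, and the labels do not say that a number marks a litter.

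The number of tested members higher in KO skin was 24 of 40, 39 of 81 without a filter and 13 of 21 with a filter at the 50th percentile. The median over tested members was 0.05 and became 0.11 with the deposited values, 0.15 after median centring, -0.011 without a filter, 0.22 with the stricter filter, and 0.079 to 0.14 with 1 array left out. The fatty acid median became 0.29 after median centring, 0.058 without a filter, 0.13 with the stricter filter, 0.11 with all probe sets and 0.21 to 0.32 with 1 array left out. The xenobiotic median became -0.047 with the deposited values, 0.34 with the stricter filter and 0.012 to 0.16 with 1 array left out. The steroid and vitamin D median became -0.18 with the stricter filter and -0.12 to 0.18 with 1 array left out. The retinoid value became 0.16 with the deposited values, 0.19 after median centring, 0.14 with all probe sets and -0.0069 to 0.11 with 1 array left out. The median of all tested probe sets was 0.02, and 0.10 after median centring.

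Single-gene differences were followed across settings only for genes named by the rule given above. Members added later or not named, such as Cyp2j9, Cyp3a25 and Cyp4f13, were not followed. Among the genes followed, signs turned in few cases. With 1 array left out, Cyp27b1 ran from -0.23 to 0.18, Cyp26b1 from -0.0069 to 0.11, Cyp11a1 from -0.12 to 0.71 and Hlf from -0.28 to 0.11; Hlf was also 0.017 after median centring. With the mean over all probe sets of each gene, 14953 genes were tested and 362 passed, with the same count of 4 P450 genes; each P450 gene has 1 probe set, so only its adjusted p could move. Without replicates beyond 2 per genotype, and with a lone array assumed to vary like the other genotype's pair, small differences cannot be resolved.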

Other observations

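Scgb1a1, a secretoglobin that like Cyp2f2 is known from airway club cells, read 7.26 and 7.67 in KO arrays, against 8.56 and 8.78 in het arrays, a difference of -1.21 (SE 0.15, limma adjusted p = 0.00861). It was chosen after its values were seen. Scgb3a1, another secretoglobin, read 7.39 and 7.65 in KO arrays, against 7.44 and 7.71 in het arrays. P450 enzymes whose symbols fall outside the naming pattern showed no call: Cyp51, of cholesterol synthesis, differed by 0.22 (SE 0.15), Ptgis, prostacyclin synthase, by -0.16 (SE 0.12), and Tbxas1, thromboxane synthase, by 0.04 (SE 0.16).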
